A study of Homo sapiens with 3 samples.

Results

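Host transcripts of microRNAs and small nucleolar RNAs (snoRNAs) were examined in the MDA-MB-231 cell line. It is a widely used human breast cancer line with mesenchymal features, usually classed as lacking oestrogen receptor alpha. The members were the genes whose symbol is SNHG with a number, MIR with a number or letters and the ending HG, GAS5 or DLEU2. A probe set counted when the array annotation pairs it with 1 symbol alone, of this form. This gave 43 of 19775 measured genes, read by 65 of 54675 probe sets on Affymetrix HG-U133 Plus 2 arrays. Of the members, 30 are named for a microRNA, 11 are SNHG genes, and GAS5 and DLEU2 complete the set. The 3 groups had 1 array each, from cells kept 4 h in medium with 10% charcoal-stripped (steroid-poor) serum and then treated for 3 h. Vehicle cells received 0.1% ethanol, estradiol cells 1 µM of the oestrogen, and ERα17p cells 1 µM of a peptide derived from oestrogen receptor alpha. The sources used here do not give the peptide's solvent. With 1 array per group there are no replicates and no tests, and every difference below describes these arrays.

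A host transcript carries small RNAs inside its introns or exons. The enzymes Drosha and Dicer cut a microRNA from its host, and the finished microRNA pairs with messenger RNAs mainly through its seed, bases 2 to 8. A snoRNA is trimmed from a spliced intron and guides methylation or pseudouridylation of ribosomal RNA, while the spliced remainder of many SNHG transcripts is degraded in the cytoplasm. These arrays read the host transcript and not the mature small RNA.

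Of the 43 members, 42 were found in RefSeq's genes (GRCh38.p14) by Entrez identifier. A microRNA gene lies within the span of 29 of the 30 microRNA-named members and of DLEU2. A snoRNA gene lies within the span of 8 of the SNHG and GAS5 members, with 11 in GAS5 and 5 in SNHG17. The mature microRNAs below come from RefSeq (GRCh38.p14). They are shown because their hosts include the members farthest from vehicle, and because 3 of the hosts carry the same seeds. Capitals mark the seed.
hsa-miR-181a-5p in MIR181A2HG, chr9:124692480-124692502, plus strand: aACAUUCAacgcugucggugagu
hsa-miR-181b-5p in MIR181A2HG, chr9:124693725-124693747, plus strand: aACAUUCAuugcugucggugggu
hsa-miR-100-5p in MIR100HG, chr11:122152275-122152296, minus strand: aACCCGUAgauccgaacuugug
hsa-miR-99a-5p in MIR99AHG, chr21:16539101-16539122, plus strand: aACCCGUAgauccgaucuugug
hsa-miR-125b-5p in MIR100HG, chr11:122099809-122099830, minus strand: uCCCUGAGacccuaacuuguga
hsa-let-7a-5p in MIR100HG, chr11:122146568-122146589, minus strand: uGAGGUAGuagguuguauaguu
hsa-let-7c-5p in MIR99AHG, chr21:16539838-16539859, plus strand: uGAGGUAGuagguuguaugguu
hsa-let-7b-5p in MIRLET7BHG, chr22:46113691-46113712, plus strand: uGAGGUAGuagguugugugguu
hsa-miR-34b-5p in MIR34BHG, chr11:111512950-111512972, plus strand: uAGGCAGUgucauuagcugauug
hsa-miR-15a-5p in DLEU2, chr13:50049167-50049188, minus strand: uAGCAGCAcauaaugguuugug
hsa-miR-16-5p in DLEU2, chr13:50049027-50049048, minus strand: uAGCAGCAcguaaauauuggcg

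The seed ACAUUCA is shared by both microRNAs of MIR181A2HG, and AGCAGCA by both shown for DLEU2. The let-7 seed GAGGUAG occurs in 4 microRNA genes of 3 hosts (MIR100HG, MIR99AHG and MIRLET7BHG), since MIRLET7BHG also holds a gene for the let-7a shown above. The seeds ACCCGUA and CCCUGAG each occur in MIR100HG and in MIR99AHG, which also encodes the same miR-125b-5p.

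The authors had centred each probe set's log2 values on a reference that no source describes, so the values give differences between arrays but no level. The vehicle array spread more widely than the treated ones, with an SD over all probe sets of 0.494 against 0.260 (estradiol) and 0.241 (ERα17p). Over the 65 host probe sets these SDs were 0.481, 0.232 and 0.184. Labelling spikes, bacterial RNAs added to each sample, were 2.03 and 2.04 higher (log2) on the estradiol and ERα17p arrays than on the vehicle array (medians of 27 probe sets), and hybridisation spikes were at -0.74 and -0.93 (18 probe sets). These shifts lie beside every comparison with vehicle below, and their part in it was not tested. Of the cell markers, 2 and 3 of 10 genes of mesenchymal-like breast lines were at least 1.5-fold higher under estradiol and ERα17p and 0 lower. Among luminal breast genes 1 and 0 of 10 were higher and 1 and 1 lower. Of 5 blood cell genes measured 1 was higher and 0 lower in each comparison. Over all genes 10.6% (estradiol) and 9.56% (ERα17p) were higher, and 8.42% and 8.82% lower. Centred values do not show whether any marker was present.

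Few host transcripts differed from vehicle by 1.5-fold, the limit for a call here, on the median of a gene's probe sets. Under estradiol 5 of 43 members were called higher (11.6%) and 3 lower (6.98%), against a background over all genes of 10.6% higher and 8.42% lower. Under ERα17p 1 member was higher (2.33%) and 5 were lower (11.6%), against 9.56% and 8.82% of all genes. The members' shares thus lay near the background, apart from the single higher call under the peptide. The median difference of the members was 0.05 for estradiol and 0.03 for ERα17p, and that of all genes was 0.002 in each. Both comparisons use the same vehicle array. The vehicle value was the highest of the 3 arrays in 21 host probe sets (32.3%) and the lowest in 30 (46.2%), where all probe sets gave 39.1% and 37.5%. Among the members, 4 were called under both agents: MIR181A2HG, SNHG17 and SNHG19 on the low side and SNHG18 on the high side. When the reference level that the authors subtracted replaced vehicle, 0 members were called under either agent. Calls were then rare over all genes too, with 1.28% higher and 0.516% lower under estradiol and 0.496% and 0.632% under ERα17p. The arrays behind that level are not described. If the treated arrays were among them, their values would lie near it by construction, so these counts are no independent baseline. Values of exactly 0 made up 7.08% of the vehicle array, 8.14% of the estradiol array and 8.54% of the ERα17p array. Whether these arrays set the level was not tested.

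**Figure D1:**
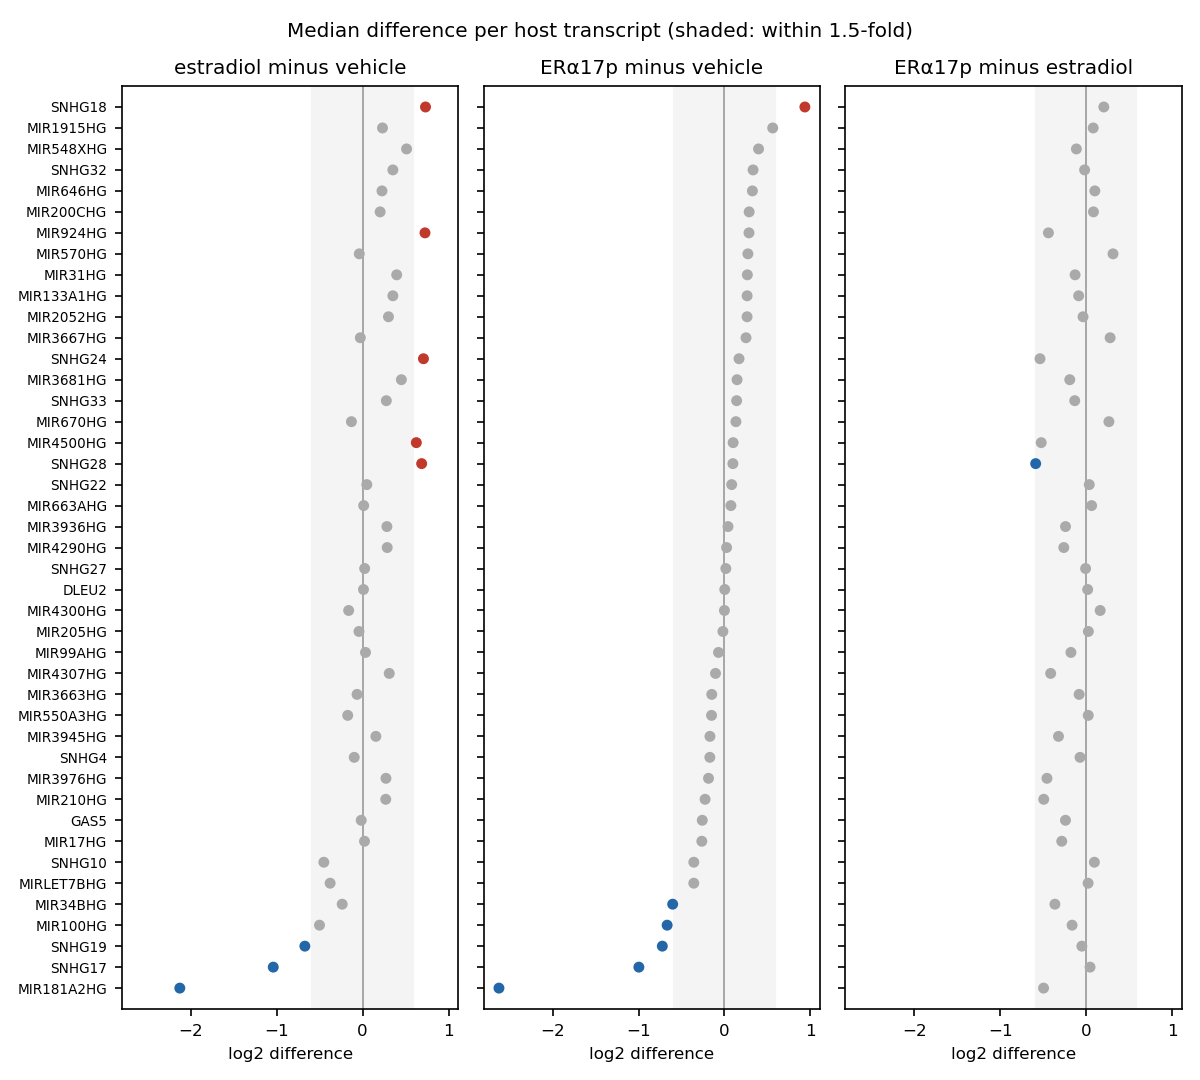
Median log2 difference of each of the 43 host transcripts (rows, ordered by ERα17p minus vehicle) in the 3 comparisons, with 1 array per group. Red points were at least 1.5-fold higher and blue points at least 1.5-fold lower; MIR181A2HG lies farthest left in both comparisons with vehicle, at -2.13 and -2.62, and 1 member (SNHG28) is blue in the direct comparison.

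Among microRNA hosts, MIR181A2HG stood farthest from vehicle. It hosts miR-181a and miR-181b, microRNAs known for roles in lymphocyte development, and was read by 1 probe set. Its value was 2.13 for vehicle, 0.00 for estradiol and -0.50 for ERα17p. The vehicle array was high and both treated arrays lay at or below the reference. The log2 difference was -2.13 for estradiol (4.37-fold lower) and -2.62 for ERα17p (6.17-fold lower). After quantile normalisation these were -1.33 and -2.04. In bulk RNA, fewer expressing cells and less RNA per cell cannot be told apart.

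The 3 hosts that share let-7 seeds differed among themselves. MIR100HG, which also carries miR-100 and miR-125b, had 2 probe sets. The first was at 0.67, -0.13 and -0.44 for vehicle, estradiol and ERα17p, and the second at 0.07, -0.13 and -0.15. Both were highest on the vehicle array, the first by far the more. The gene's median difference was -0.50 for estradiol, short of the limit, and -0.67 for ERα17p (1.59-fold lower).

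MIRLET7BHG was also highest on the vehicle array, without reaching the limit. Its probe sets were at 0.19 and 0.25 on the vehicle array, -0.31 and 0.00 under estradiol, and -0.10 and -0.17 under ERα17p, and the median differences were -0.38 and -0.36. MIR99AHG, which holds the paralogous cluster of miR-99a, let-7c and miR-125b, differed little. Its 3 probe sets lay between -0.19 and 0.23 on all arrays, with median differences from vehicle of 0.03 and -0.07. Hosts of microRNAs with the same seeds therefore had median differences between -0.67 and -0.07 under ERα17p.

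MIR34BHG, host of miR-34b and of miR-34c, which belong to a family activated by p53, was at 0.21 on the vehicle array, -0.03 under estradiol and -0.40 under ERα17p. The peptide's array was the lowest. Its difference from vehicle was -0.60 (1.52-fold lower), just past the limit, and that of estradiol -0.24.

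MIR924HG and MIR4500HG were called higher under estradiol and not under ERα17p, though the agents differed by less than 1.5-fold for both (-0.44 and -0.52, ERα17p minus estradiol). MIR924HG was at -0.29, 0.44 and 0.00 for vehicle, estradiol and ERα17p, with differences from vehicle of 0.73 and 0.29. MIR4500HG was at -0.10, 0.52 and 0.00, with differences of 0.63 and 0.10. Each has 1 probe set, and in both the estradiol array was the highest of the 3.

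MIR17HG, host of the miR-17 cluster that MYC activates, was at 0.00, 0.02 and -0.26 for vehicle, estradiol and ERα17p. The vehicle and estradiol values lay together and the peptide's lay lower, by -0.26 from vehicle. This rests on 1 probe set, since another that reads MIR17HG also names its microRNAs. MIR155HG, host of a microRNA of inflammation, had no probe set of 1 symbol and was not analysed here.

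DLEU2, a long transcript over miR-15a and miR-16-1 that is often deleted in chronic lymphocytic leukaemia, gave opposite answers from its 7 probe sets. A pair of them was at 1.03 and 1.39 for vehicle, 0.06 and -0.09 under estradiol, and -0.35 and 0.00 under ERα17p. Another was at -1.53 on the vehicle array, 0.67 under estradiol and 0.00 under ERα17p. The pair was thus high on the vehicle array and the other low there. The differences from vehicle spanned -1.49 to 2.20 for estradiol and -1.39 to 1.53 for ERα17p. The remaining 4 probe sets differed by between -0.13 and 0.23, so the gene's median was 0.01 and 0.004. Of the 7, 3 are of the _x_at class, which can match several transcripts. They include the probe set at -1.53 on the vehicle array and, from the pair, the one at 1.39.

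**Figure D2:**
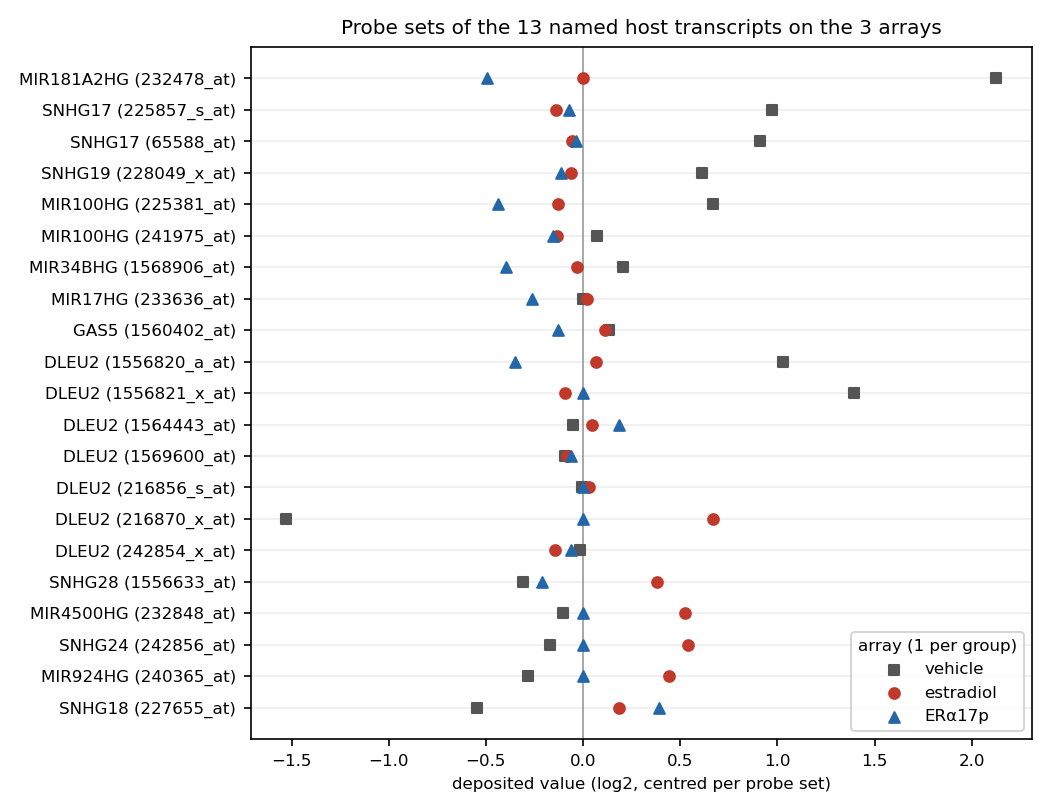
Deposited value (log2, centred per probe set) of every probe set of the 13 members described in full, on the vehicle (squares), estradiol (circles) and ERα17p (triangles) arrays. The vehicle squares of MIR181A2HG (2.13) and SNHG17 (0.91 and 0.97) lie right of both treated arrays, and DLEU2 has squares on both sides, from -1.53 to 1.39.

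Among snoRNA hosts, SNHG17 was the member farthest from vehicle. It carries snoRNAs of the SNORA71 group, which belong to the H/ACA class that guides pseudouridylation, and was read by 2 probe sets. The first was at 0.91, -0.06 and -0.04 for vehicle, estradiol and ERα17p, and the second at 0.97, -0.14 and -0.07. Both probe sets were high on the vehicle array, and the treated arrays nearly coincided. The median difference from vehicle was -1.04 for estradiol (2.06-fold lower) and -0.996 for ERα17p (1.99-fold lower), and the agents differed from each other by 0.04. Measured from the reference level and not from vehicle, the differences were -0.10 and -0.05, though that level may rest on the treated arrays themselves.

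SNHG19, the host of the C/D box snoRNA SNORD60, was likewise highest on the vehicle array, with smaller differences. Its 1 probe set was at 0.61 on the vehicle array, -0.06 under estradiol and -0.11 under ERα17p. The treated arrays lay together below vehicle. The differences were -0.67 (1.59-fold lower) and -0.72 (1.65-fold lower), and they depend on a probe set of the _x_at class. After quantile normalisation both were below the limit, at -0.49 and -0.56.

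SNHG18, the host of SNORD123, went the other way. Its 1 probe set was at -0.55, 0.18 and 0.39 for vehicle, estradiol and ERα17p. Both treated arrays lay above vehicle, by 0.73 (1.66-fold) and 0.94 (1.91-fold). It was the 1 member called higher under the peptide.

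SNHG24 and SNHG28 were called higher under estradiol, by 0.71 and 0.69, while their differences under ERα17p were 0.17 and 0.10. SNHG24 was at -0.17, 0.54 and 0.00 for vehicle, estradiol and ERα17p. SNHG28 was at -0.31, 0.38 and -0.21. Each has 1 probe set, and in both the estradiol array was the highest. SNHG24 was the member not found in RefSeq's genes, so no snoRNA could be placed in it. All 5 higher calls under estradiol were of members with 1 probe set (5 of 29, against 963 of 9252 such genes). Of the 14 members with at least 2 probe sets, 0 were called higher, beside 10.6% of all genes. With only 14 members, this count is not read as a difference from that share.

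GAS5, a growth-arrest transcript whose spliced form is a known target of nonsense-mediated decay, was at 0.13, 0.12 and -0.13 for vehicle, estradiol and ERα17p. Its difference was -0.02 for estradiol and -0.26 for ERα17p, both within 1.5-fold. Only 1 of its probe sets has GAS5 as the sole symbol. Another 4 also name its snoRNAs, and their values were not assigned to it.

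The windows around the start sites of SNHG17, SNHG19 and SNHG18 are printed because these hosts differed from vehicle under both agents. Each covers 250 bases before to 50 after the annotated start (RefSeq, GRCh38.p14), on the gene's own strand. Capitals mark a terminal oligopyrimidine start, searched as a C followed by at least 4 pyrimidines on the sense strand, beginning from 10 bases before to 11 after the first position of the transcript.
SNHG17, chr20:38435279-38435578, minus strand: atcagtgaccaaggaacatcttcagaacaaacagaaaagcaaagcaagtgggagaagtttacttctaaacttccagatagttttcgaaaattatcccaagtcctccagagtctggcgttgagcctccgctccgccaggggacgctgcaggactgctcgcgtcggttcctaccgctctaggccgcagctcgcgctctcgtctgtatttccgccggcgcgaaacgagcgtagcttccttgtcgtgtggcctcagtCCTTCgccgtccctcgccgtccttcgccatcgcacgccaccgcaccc
SNHG19, chr16:2155309-2155608, minus strand: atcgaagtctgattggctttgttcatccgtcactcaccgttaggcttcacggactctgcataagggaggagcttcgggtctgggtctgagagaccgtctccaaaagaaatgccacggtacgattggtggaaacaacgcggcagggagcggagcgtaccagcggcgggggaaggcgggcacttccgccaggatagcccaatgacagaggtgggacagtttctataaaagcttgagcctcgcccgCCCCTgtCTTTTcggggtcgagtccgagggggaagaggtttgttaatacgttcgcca
SNHG18, chr5:9545950-9546249, plus strand: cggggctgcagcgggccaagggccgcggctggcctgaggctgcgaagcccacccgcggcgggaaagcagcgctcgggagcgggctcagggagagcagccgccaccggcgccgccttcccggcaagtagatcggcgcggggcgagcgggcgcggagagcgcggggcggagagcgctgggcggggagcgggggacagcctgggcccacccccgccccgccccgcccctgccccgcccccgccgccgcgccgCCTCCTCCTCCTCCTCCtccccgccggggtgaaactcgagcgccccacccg

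Such a start is typical of transcripts of the translation machinery and of many snoRNA hosts. It was found in all 3 windows, in 16 of the 33 members with a window and in 34.3% of all 27305 windows. The run in SNHG18 is a repeat of CCT in a window of 81.3% G and C, against 57.3% in SNHG17 and 57.0% in SNHG19. Both SNHG17 and SNHG19, which were lower, and SNHG18, which was higher, held it. The palindromic oestrogen response element GGTCANNNTGACC, searched on both strands, occurred in 1 member window (SNHG27) and in 0.0659% of all windows. SNHG27 differed from vehicle by 0.02 under each agent. Its half-site GGTCA, which the full element contains, was in 13 member windows, SNHG17 among them, and in 37.7% of all. The AP-1 motif TGANTCA was in 0 member windows and 7.76% of all, and the E-box CACGTG in 1 (DLEU2) and 7.43%. These matches are descriptions of letters in a window.

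The other 30 members stayed within 1.5-fold in every comparison on their gene medians. Their median differences from vehicle ranged from -0.45 (SNHG10) to 0.51 (MIR548XHG) under estradiol and from -0.36 (MIRLET7BHG) to 0.56 (MIR1915HG) under ERα17p. MIR205HG and MIR200CHG, hosts of microRNAs that maintain epithelial identity, were at 0.00 on the vehicle array. MIR205HG was at -0.04 and -0.02 on the treated arrays, and MIR200CHG at 0.20 and 0.29. MIR31HG, host of miR-31, was at -0.20, 0.20 and 0.07 for vehicle, estradiol and ERα17p.

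MIR210HG, host of the hypoxia-induced miR-210, had the agents on opposite sides of vehicle. Its probe sets were at -0.02 and 0.38 on the vehicle array, 0.33 and 0.58 under estradiol, and -0.08 and 0.00 under ERα17p. In both probe sets the estradiol array was the highest and the peptide's the lowest. The median difference from vehicle was 0.27 for estradiol and -0.23 for ERα17p.

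Where a member had several probe sets, these lay on the same side of vehicle in most members but not in all. Of 14 members with at least 2 probe sets, 8 had all of them on the same side of vehicle under estradiol and 10 under ERα17p. Over all 10523 such genes the shares were lower, at 44.9% and 44.5%. Such a share depends on how many probe sets each gene has, for which the members and all genes were not matched. MIR1915HG had its 3 probe sets at 0.11, 0.23 and 0.80 under estradiol and at 0.19, 0.56 and 0.61 under ERα17p. MIR570HG had -0.42 and 0.34 under estradiol and 0.20 and 0.34 under the peptide. SNHG27 had 0.26 and -0.21 under estradiol, so that its median of 0.02 summed up opposite values.

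**Figure D3:**
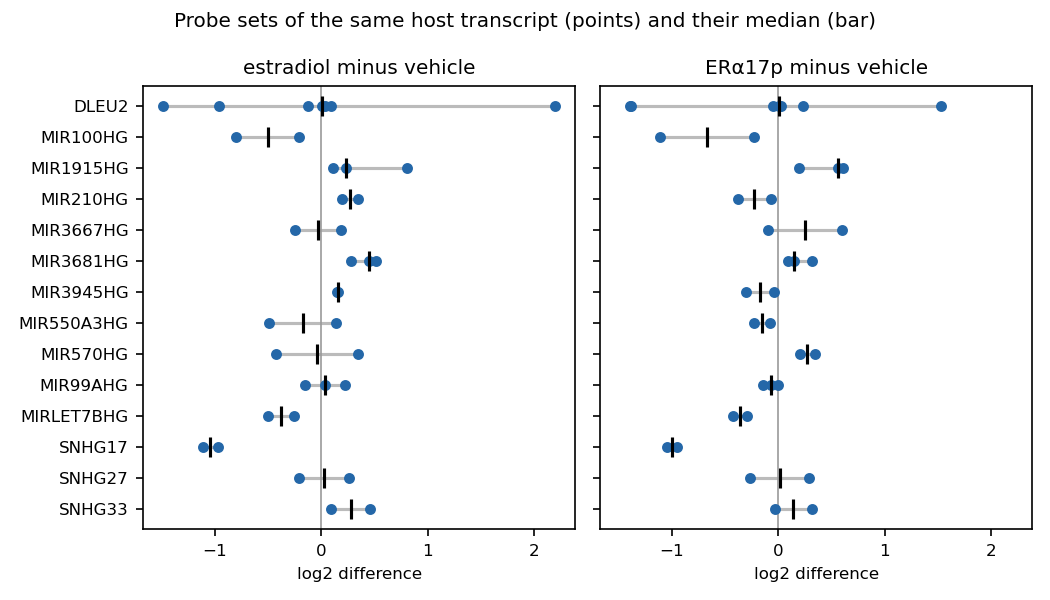
Log2 difference from vehicle of each probe set (points) of the 14 host transcripts with at least 2, with the gene's median (bar) and range (line), for estradiol and ERα17p. SNHG17's points lie together near -1.0 in both comparisons, whereas DLEU2 runs from -1.49 to 2.20 under estradiol.

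In the direct comparison, which leaves the vehicle array out, ERα17p differed from estradiol in 1 member. SNHG28 was at -0.59 and was called lower (1 of 43, 2.33%, against 2.04% of all genes). No member was called higher (0 of 43, against 1.29% of all genes). SNHG24 (-0.54), MIR4500HG (-0.52), MIR181A2HG (-0.50) and MIR210HG (-0.49) came next, all below 1.5-fold. The members' median was -0.08, with 27 of 43 below 0, and that of all genes was -0.01. After quantile normalisation of the centred values, which gives the arrays a common spread, 5 members were called lower and 0 higher. Of all genes 4.55% were then lower and 3.25% higher. SNHG24 (-0.71), MIR181A2HG (-0.71) and MIR4500HG (-0.69) were then past the limit. The actin control (ACTB), read at its 3′ end minus its 5′ end, was at -0.27 under estradiol and 0.31 under ERα17p, and GAPDH at 0.06 and 0.15. The part of this shift in the members' values was not tested.

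Many well-known hosts fall outside the counts because the array annotation names other genes, mostly small RNAs, on the same probe set. A host symbol stood beside other symbols on 61 probe sets, and for 47 of these all other symbols named small RNAs. Altogether 24 hosts had only probe sets among these 61, including SNHG1, SNHG5, SNHG12, SNHG15, SNHG16, MIR22HG and MIR155HG. Their genes are not given singly, since the signal cannot be credited to 1 symbol.

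The 47 probe sets that name a host and its small RNAs lay below vehicle in their median, though 14 of them were above it under estradiol and 11 under ERα17p. Under estradiol 14 were called lower and 2 higher (median -0.31), and under ERα17p 13 were lower and 2 higher (median -0.22). Of all probe sets, 12.6% were lower and 12.1% higher under estradiol, and 12.1% and 11.3% under ERα17p, with medians of -0.008 and -0.001. The 26 that name an SNHG gene or GAS5 had 10 lower and 0 higher under estradiol and 7 lower and 0 higher under ERα17p. The 21 that name a microRNA host or DLEU2 had 4 lower and 2 higher, and 6 lower and 2 higher. Several of these probe sets read the same gene. Beside them the labelling spikes were at 2.03 and 2.04 and the hybridisation spikes at -0.74 and -0.93. The part of either in these values was not tested. Counting these probe sets for their hosts, a choice made after the annotation was seen, gave 66 genes, of which 9 were called lower and 6 higher under estradiol, and 11 lower and 1 higher under ERα17p. Of all genes in that setting 8.44% were lower and 10.6% higher under estradiol, and 8.84% and 9.55% under ERα17p.

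Proteins that make snoRNA particles and microRNAs were described alongside their hosts. For this list and all those below, the shares over all genes were 8.42% lower and 10.6% higher under estradiol. Under ERα17p they were 8.82% lower and 9.56% higher. Of 16 measured genes for snoRNA particle core and assembly proteins, 4 were called lower and 2 higher under each agent (medians -0.26 and -0.22). For list genes with several probe sets, array values and differences are each medians over those sets. RUVBL2, an ATPase of the assembly complex, was at 1.05, -0.09 and -0.04 for vehicle, estradiol and ERα17p, with differences of -1.23 and -1.17. Its partner PIH1D1 was at 1.13, -0.08 and -0.08, with differences of -1.22 and -1.21. The assembly factor ZNHIT6 was higher, at -0.84, 0.30 and 0.29, with differences of 1.13 and 1.12. The list thus held members that stood on either side of vehicle.

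Nonsense-mediated decay, which degrades the spliced form of several snoRNA hosts, was represented by 8 genes. Under each agent 3 were lower and 0 higher, with medians of -0.32 and -0.31. Of all genes 8.42% (estradiol) and 8.82% (ERα17p) were lower, and 10.6% and 9.56% higher. SMG5 was at 0.80, -0.13 and -0.02 for vehicle, estradiol and ERα17p, SMG9 at 0.78, -0.01 and -0.02, and the helicase gene UPF1 at 0.51, -0.22 and 0.01. All 3 were highest on the vehicle array, and all 3 were called lower under estradiol. Under ERα17p the calls were SMG5, SMG9 and, outside the naming rule and chosen after its value was seen, SMG6 (-0.66), while UPF1 was at -0.50.

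Of 17 genes of microRNA processing and action, 1 was lower and 0 higher under estradiol, and 1 lower and 1 higher under ERα17p. DDX17, a helicase of the Drosha complex, was at 0.84, 0.00 and 0.32 for vehicle, estradiol and ERα17p. TARBP2, a partner of Dicer, was at 0.34, -0.10 and -0.40, and AGO3, an Argonaute protein, at -0.33, -0.14 and 0.48. TARBP2 was called lower and AGO3 higher on the peptide's array, DDX17 lower under estradiol.

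Protein-coding microRNA hosts had 2 of 28 lower and 1 higher under estradiol and 4 lower and 1 higher under ERα17p. MCM7, a replicative helicase subunit whose intron holds the miR-106b cluster, differed by -1.19 and -1.23, and EGFL7, host of miR-126, by -1.34 and -1.21. DALRD3, host of miR-191, differed by -0.52 and -0.80. The first and second were high on the vehicle array, at 1.08 and 1.10.

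Of 30 listed protein-coding snoRNA hosts 15 had a probe set of their own. CHD8, a chromatin remodeller, was lower under estradiol (-1.01) and at -0.56 under ERα17p. EIF4A2 differed by 0.43 and 0.46 and TAF1D by -0.40 and -0.27, and the list held 0 higher calls. Of 6 other long non-coding hosts 0 were called under either agent, and ZFAS1 (0.43 and 0.53), EPB41L4A-AS1 (-0.31 and -0.34) and MIR4435-2HG (-0.31 and -0.32) had the widest differences.

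**Figure D4:**
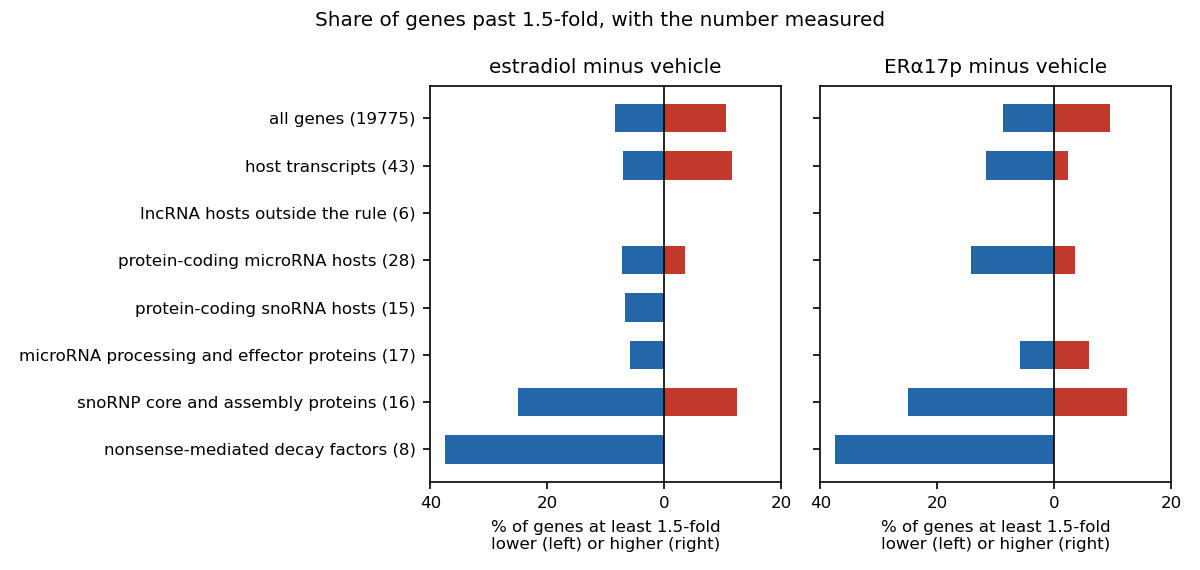
Share of genes at least 1.5-fold lower (blue, to the left) or higher (red, to the right) than vehicle under estradiol and ERα17p, for all genes, the 43 host transcripts and 6 related gene lists, with the number of genes measured in brackets. The host transcripts reach 6.98% lower and 11.6% higher under estradiol and 11.6% lower and 2.33% higher under ERα17p. All genes reach 8.42% lower and 10.6% higher under estradiol and 8.82% lower and 9.56% higher under ERα17p.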

How the data were processed

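Total RNA from 3 samples was labelled with biotin and hybridised to 1 array each, per the labels' protocols. RMA, with no version, is named in the submitters' processing notes. The deposited values are taken as log2 because RMA gives that scale; no source used here gives the base. Each probe set's values are relative to a level that no source describes: every array has a median of 0, and 7.08% to 8.54% of values are exactly 0. Array signal and background are not analysed here. Precision is limited by there being 1 array per group.

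Symbols came from the platform annotation: 41097 probe sets had 1 symbol, 1801 several (not used for genes) and 11777 none. Differences between arrays were taken per probe set and summarised as the median per gene (Python 3.11.15, pandas 2.3.3). A call is a difference of at least 1.5-fold. Named in full were members called in any comparison, plus GAS5, DLEU2 and MIR17HG. MIR155HG was to be named as well, but had no probe set of 1 symbol and so was no member. Up to 3 genes of each related list were named, those with the widest difference. The alternatives were the mean of probe sets, omission of _s_at and _x_at probe sets, quantile normalisation, the reference level in place of vehicle and omission of the farthest member. Quantile normalisation was applied to the deposited, already centred values and not to array signals, and brings the vehicle and treated arrays to a common spread. As no replicates exist, a value was taken to have moved when it changed by more than the median SD between probe sets of a gene (0.332, 0.321 and 0.220 in the 3 comparisons). Scripts were tested on simulated data. RefSeq tables of GRCh38.p14 gave sequences and neighbouring genes; the array files name no build. The members and lists were chosen with earlier results of these data known.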

Additional observations from a re-analysis of the deposited data

How the results depend on the processing

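When the authors' reference level replaced vehicle, 0 members were higher and 0 lower under estradiol, and 0 and 0 under ERα17p. Over all genes calls were then 0.496% to 1.28%. The arrays behind that level are unknown and may include the treated ones. Counting probe sets that also name small RNAs for their host gave 9 lower calls under estradiol, 11 under ERα17p and 2 in the direct comparison, over 66 genes in place of 43. Quantile normalisation gave 5 lower calls in the direct comparison, reported as 1, while the calls over all genes went from 404 to 899. It also ended both calls of SNHG19 (-0.49 and -0.56). The other alternatives left each count within 1.5 times of its reported value, and the median of the members moved by less than the spread between probe sets in every setting. That median turned slightly negative with the added probe sets, at -0.01 under estradiol and -0.03 under ERα17p. Of 140 values for single members under the alternatives, 12 moved by more than that spread and 0 calls changed sign; 10 of the 12 came with the reference level and 2 with quantile normalisation (MIR181A2HG). Without _s_at and _x_at probe sets 40 members remained, and SNHG19 dropped out. No level or signal over background is known, so a difference may belong to a transcript near the detection limit.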
